A study of Mus musculus with 4 samples.

Results

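Open chromatin far from genes was examined in long-term hematopoietic stem cells (LT-HSCs), the cells that sustain all blood lineages. Far intergenic peaks were defined as peaks that overlap the body of no protein-coding gene and lie 100 kb or more from the nearest start of a protein-coding transcript (GENCODE M21, GRCm38). The rule used positions only, and 7753 of 93513 peaks met it, which is 8.29% of all peaks and 22.6% of intergenic peaks. The single-cell ATAC-seq table counts cut sites of the Tn5 transposase in each peak and cell. Its labels name LT-HSCs of C57BL/6JRj mice aged 22 to 28 months that were sorted by antibody as Clca3a1_high or Clca3a1_low, CLCA3A1 being a surface protein. Each sample pooled 2500 cells from each of 4 mice, no altered allele or agent is named for any group, and there is 1 sample per group. The cell barcodes carry 1 of 2 suffixes, called set 1 and set 2 here, and no label ties a suffix to a sample, so that the values below describe the sets and give no direction between Clca3a1_high and Clca3a1_low cells. A second table with LT-HSCs of young mice (3 to 4 months) and old mice (22 to 28 months) has peaks without names and was not used here.

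Far from genes, accessible DNA is mostly made of distal enhancers, of boundary sites that bind CTCF, and of promoters of non-coding RNAs. Enhancers act on promoters over long distances by DNA looping, and genes that direct development and blood formation often lie beside wide regions without other genes, from which many enhancers act on them. PU.1, RUNX, GATA and AP-1 factors bind enhancers of blood cells, and TEAD factors are the DNA-binding partners of the coactivator TAZ.

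The table held 1454 cells, 818 in set 1 and 636 in set 2, and the sets shared 0 barcodes. It contained 22871046 counts, 13050952 in set 1 and 9820094 in set 2, with medians of 13358.5 and 12755 counts per cell. Of the nonzero values 88.7% were even, and a fragment has a cut site at each end. Such counts are not independent, and the 95% intervals given here (Clopper-Pearson for shares, Poisson for counts, binomial for ratios) cover at most counting error. Those on counts, on ratios and on shares of counts treat each cut site as independent, which makes them too narrow. Neither cells nor peaks replicate a condition, and p-values were left out for this reason. The promoters of all 8 LT-HSC marker genes examined held peaks, with 99.5 CPM (counts scaled to a total of 1000000) at Mecom, 75.2 at Meis1 and 65.0 at Kit. The others had 44.2 CPM at Hlf, 24.6 at Ptprc, 17.7 at Fgd5, 9.75 at Procr and 4.81 at Slamf1. Promoters of other cell types were not closed as a whole, with up to 39.5 CPM at the erythroid gene Klf1 and 29.7 at the B cell gene Pax5. Promoter peaks were found at 4 of 4 macrophage genes (1.49 to 28.0 CPM), 4 of 4 endothelial genes (4.63 to 33.4 CPM), 4 of 4 stroma genes (3.32 to 31.4 CPM), 3 of 4 B cell genes, 3 of 4 erythroid genes, 2 of 4 granulocyte genes and 1 of 4 T cell genes, and no promoter peak was found at Cd3e, Cd4, Cd8a, Ms4a1, Elane, S100a8 or Hba-a1. Between the sets, the promoter peaks of Lck, the single T cell gene with one, had 2.45 CPM in set 1 and 9.06 in set 2, and the summed promoters of erythroid genes had 83.6 and 64.8. The study's sort used lineage antibodies, among them those against CD3, CD4, CD8 and the erythroid antigen TER-119. The part of other cells in the differences between the sets was not tested.

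The sequences of 6 members are shown because they are among those that differ most between the sets, as described below. Each is the central 300 bases on the plus strand of GRCm38 (RefSeq assembly), and capitals mark the searched words. The first 3 were higher in set 1 and are from chr14:105767170-105767469 (nearest gene Spry2), chr13:79443089-79443388 (Nr2f1) and chr7:72728919-72729218 (Mctp2). The last 3 were higher in set 2 and are from chr2:128294862-128295161 (Bcl2l11), chr8:115398069-115398368 (Maf) and chr10:120686134-120686433 (Msrb3).
Spry2 side: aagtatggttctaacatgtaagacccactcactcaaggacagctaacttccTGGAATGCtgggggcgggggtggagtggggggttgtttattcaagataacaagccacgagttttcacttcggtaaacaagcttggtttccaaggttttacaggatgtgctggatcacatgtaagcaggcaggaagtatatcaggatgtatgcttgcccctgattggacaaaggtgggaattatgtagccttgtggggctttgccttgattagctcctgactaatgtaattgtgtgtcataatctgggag
Nr2f1 side: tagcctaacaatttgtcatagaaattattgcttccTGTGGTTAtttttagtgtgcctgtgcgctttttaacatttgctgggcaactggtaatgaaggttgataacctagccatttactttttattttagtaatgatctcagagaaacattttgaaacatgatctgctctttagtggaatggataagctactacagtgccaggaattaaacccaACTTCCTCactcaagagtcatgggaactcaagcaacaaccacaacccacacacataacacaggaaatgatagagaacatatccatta
Mctp2 side: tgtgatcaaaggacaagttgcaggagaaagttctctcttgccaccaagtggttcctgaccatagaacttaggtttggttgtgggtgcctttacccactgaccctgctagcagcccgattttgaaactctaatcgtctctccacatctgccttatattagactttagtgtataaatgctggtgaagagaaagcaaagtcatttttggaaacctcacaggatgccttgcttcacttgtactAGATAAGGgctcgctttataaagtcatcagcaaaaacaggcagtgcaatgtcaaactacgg
Bcl2l11 side: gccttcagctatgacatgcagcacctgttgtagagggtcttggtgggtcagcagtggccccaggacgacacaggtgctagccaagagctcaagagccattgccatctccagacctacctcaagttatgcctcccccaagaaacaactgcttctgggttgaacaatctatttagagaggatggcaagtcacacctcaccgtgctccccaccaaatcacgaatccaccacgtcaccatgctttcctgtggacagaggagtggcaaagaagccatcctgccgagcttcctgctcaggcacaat
Maf side: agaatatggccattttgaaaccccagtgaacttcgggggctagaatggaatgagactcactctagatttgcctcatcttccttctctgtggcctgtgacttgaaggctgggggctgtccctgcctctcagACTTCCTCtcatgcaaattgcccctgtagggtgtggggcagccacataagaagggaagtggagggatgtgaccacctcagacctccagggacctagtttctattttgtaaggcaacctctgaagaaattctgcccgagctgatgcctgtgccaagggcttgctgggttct
Msrb3 side: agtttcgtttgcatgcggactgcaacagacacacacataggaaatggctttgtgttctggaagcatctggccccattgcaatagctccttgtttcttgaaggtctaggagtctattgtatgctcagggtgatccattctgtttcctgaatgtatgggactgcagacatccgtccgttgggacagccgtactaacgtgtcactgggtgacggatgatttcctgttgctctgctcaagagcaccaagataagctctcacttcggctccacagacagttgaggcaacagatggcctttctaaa
The Spry2 sequence held the TEAD word, the Nr2f1 sequence the PU.1 and RUNX words, and the Mctp2 sequence the GATA word. The Maf sequence held the PU.1 word. No searched word was present in the Bcl2l11 and Msrb3 windows. A match of letters describes the sequence and does not show that a factor binds there.

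Most far intergenic peaks were narrow and were open in few cells. Their median width was 453 bp (quartiles 309 and 694), against 491 bp for intergenic peaks nearer to a gene, 475 bp in gene bodies and 1517 bp at promoters. The median member had 67 counts and was open, meaning that it had at least 1 count, in 2.54% of cells (quartiles 1.38 and 4.81%). The medians were 2.89% for nearer intergenic peaks, 2.54% in gene bodies and 15.7% at promoters. Together the members covered 4273062 bp and held 4.45% of all counts (4.45 to 4.46%). Their share was 4.60% for set 1 (interval 4.59 to 4.62%) and 4.26% for set 2 (interval 4.24 to 4.27%). A total of 287 members had no count in any cell, and 372 were narrower than 50 bp. In 1454 cells, 0 cells with a count allow a share of cells with a count of up to 0.206%, taken as 3 counts and covering counting error only.

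**Figure D1:**
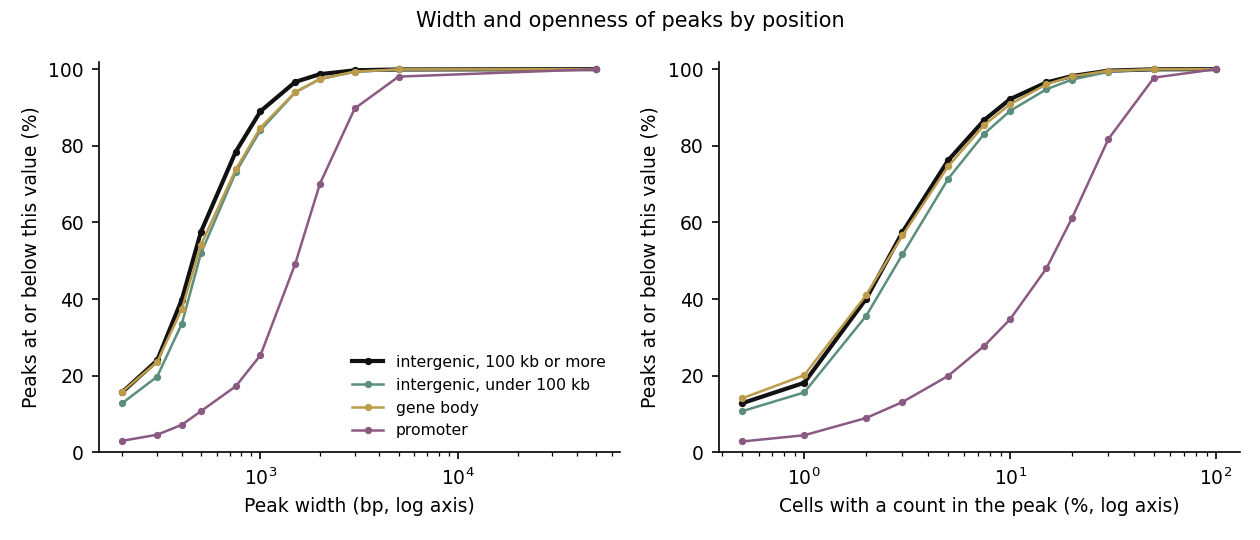
Cumulative percent of peaks up to a given width (left, bp on a log axis) and up to a given percent of cells with a count (right, log axis), with 1 line for each of 4 positions of the peak. The line of far intergenic peaks (black) ran beside those of nearer intergenic and gene body peaks and left of the promoter line, with 76.2% of far intergenic peaks open in 5% of cells or fewer.

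Openness was concentrated in few members. The 64 members that were open in over 25% of cells, 0.825% of the total, held 13.3% of the counts, and the 5909 members open in 5% of cells or fewer held 31.9%. The 64 include a ribosomal RNA repeat, described below, that alone held 4.97% of the counts of all members. The 64 widely open members had a median width of 1907 bp. A start of a long non-coding RNA (lncRNA) lay within 1000 bp of 19 of them (29.7%), and 33 (51.6%) overlapped a lncRNA gene. Among the members open in 5% of cells or fewer these shares were 3.6% and 19.3%. Over all members, 372 lay within 1000 bp of a lncRNA start, and these were open in a median of 4.02% of cells (quartiles 2.13 and 8.46%) against 2.48% (1.38 and 4.61%) for the others.

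The most open member, chr17:39842796-39849035, was at a copy of the ribosomal RNA repeat. It overlapped AY036118, Gm26917 and Gm42418 in GENCODE and Rn18s-rs5 in RefSeq, had counts in 89.6% of cells and reached 2166 counts in 1 cell. It alone held 50614 counts, 4.97% of the counts of all members, with 2543 CPM in set 1 (2516 to 2570) and 1775 in set 2 (1748 to 1801). The genome holds many copies of this repeat, and how their reads were shared among copies was not tested. Without it, the share was 4.35% for set 1 (interval 4.34 to 4.36%) and 4.08% for set 2 (interval 4.07 to 4.09%), again higher for set 1.

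The next most open members given here had log2 ratios between the sets of -0.19 to 0.05. The widest member, chr6:31209463-31222004 in the Lncpint lncRNA locus between Klf14 and Mkln1, was 12542 bp wide and open in 58.1% of cells (55.5 to 60.7%), with 167.4 CPM in set 1 and 161.2 in set 2. The member chr13:107887950-107892392 was open in 52.1% of cells (49.5 to 54.7%), with 123.0 and 126.2 CPM. It overlapped Zswim6, a gene that GENCODE M21 lists as a processed transcript and RefSeq as protein-coding, and 117 members in all overlapped a gene body that RefSeq lists as protein-coding. A member 283.9 kb from Gata3, which encodes a regulator of T cells and stem cells, was open in 44.8% of cells (42.3 to 47.4%) with 86.3 and 85.9 CPM. A further 5 of the 10 most open members, nearest to Reep3, Zfat, Fam49a, Pcmtd1 and Arhgap12, were open in 41.1 to 44.1% of cells. Of the 10 most open members 7 overlapped a non-coding gene, and 0 differed by 2-fold or more between the sets.

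Far intergenic peaks were sparse along the genome but clustered. The DNA that meets the rule spans 854.7 Mb, or 32.3% of the sequenced genome, and held 9.07 members per Mb, whereas the rest of the genome held 47.8 peaks per Mb. The density was highest on chromosome 13 (15.9 per Mb) and chromosome 17 (14.8 per Mb) and was 2.96 per Mb on chromosome X, where peaks of every kind were sparse (11.7 per Mb against 35.3 per Mb overall). Chromosome Y had 1 member. The median gap between members next to each other was 28883 bp, and the mean spacing over the territory was 110241 bp. A median gap can lie below a mean without clustering, and random placement was not examined. With gaps of up to 10 kb joined, 3675 members (47.4%) lay in 1336 clusters of 2 or more, and 101 clusters had 5 or more. Of nearer intergenic peaks 66.3% lay in such clusters.

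The cluster with the most members spanned 91.0 kb between Haao and Zfp36l2, a gene for an RNA-binding protein that promotes mRNA decay. Its 28 members at chr17:83954080-84045068 had summed counts of 387.6 CPM in set 1 (377.0 to 398.4) and 360.8 in set 2 (349.0 to 372.9), and the most open of them had counts in 38.8% of cells. The next was the Firre lncRNA gene at chrX:50549432-50623614, a locus that helps to organise the inactive X chromosome. Its 20 members summed to 384.8 CPM in set 1 (374.2 to 395.6) and 444.1 in set 2 (431.0 to 457.5), and 17 of the 20 were on the side of set 2. The third lay in Lncpint at chr6:31066997-31137265, where 18 members summed to 211.8 and 258.9 CPM. A cluster of 15 members at the first assembled bases of chromosome 3 was nearly empty, with 477 counts and at most 2.61% of cells open. Clusters of 13 members each lay 257.5 kb from Arglu1 (148.0 CPM in set 1 and 130.8 in set 2) and 133.8 kb from Bcl11a (91.6 and 80.7 CPM).

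Wide gene-free stretches differed in how many members they held. Among 242 stretches with 1 Mb or more of sequenced bases that met the rule, the median density was 3.21 members per Mb (quartiles 1.07 and 6.75), and 31 held no member. The densest, between Id2 and Rnf144a, held 41 members in 1.10 Mb (37.1 per Mb). The stretch between Bcl11a and 5730522E02Rik held 47 members (33.0 per Mb), that between Nox3 and Arid1b 29 (26.4 per Mb) and that between Nr5a2 and Ptprc 25 (24.9 per Mb). The longest stretch, 4.47 Mb between Tenm3 and Aga, held 6 members. ID2 restrains lymphoid differentiation and BCL11A is needed for B cells and stem cells.

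The members had 1855 protein-coding genes as nearest gene, at a median distance of 190.9 kb (quartiles 136.5 and 305.2 kb). At 538 of these genes there was 1 member, while 183 genes with 10 or more held 2635 members (34.0%). The genes with the most were Adgrl2 (40 members), an adhesion receptor gene, Bcl11a (36), Gadd45g (30), a stress-induced gene, Zfp608 (29), Id2 (29), Cited2 (29), which encodes a transcriptional coregulator needed by stem cells, Jarid2 (26), a Polycomb partner, Smim15 (25), Tbl1xr1 (25) and Dad1 (25). The members beside Dad1 lie in the Tra/Trd antigen receptor locus, and those counted for Smim15 include the member at Zswim6. Antigen receptor segments are not listed as protein-coding, and the Igh locus held 44 members and the Tra/Trd locus 30, loci that were chosen after their values were seen. The 44 in Igh summed to 163.7 CPM in set 1 and 205.1 in set 2, and of the 38 with 20 or more counts 0 were past 2-fold in set 1 and 3 in set 2.

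The sets were compared by the log2 ratio of CPM with a pseudocount of 1 CPM, for the 6409 members (82.7%) with 20 or more counts, and a difference of 2-fold or more was counted. Here 723 members (11.3%) were 2-fold higher in set 1, against 5.2% of all 79625 peaks with 20 or more counts. A further 505 members (7.88%) were 2-fold higher in set 2, against 6.85% of all peaks, and 12.1% of all peaks differed in either direction. The median log2 ratio was 0.13 over members (quartiles -0.37 and 0.57), 0.03 over nearer intergenic peaks and 0.02 over all peaks. Counts over all members gave a log2 ratio of 0.11 (0.11 to 0.12), and 0.09 (0.09 to 0.10) without the ribosomal RNA repeat. These counts depend on the pseudocount. With 5 CPM in place of 1 CPM, 1.45% of members were 2-fold higher in set 1 and 0.999% in set 2, against 0.732% and 1.01% of all peaks. With each peak counted once per cell, 11.4% of members were past 2-fold in set 1 and 8.24% in set 2. Without replicates it is not known how much a pair of libraries of the same group would differ, and the difference between cells cannot be told apart from that between libraries.

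The share of intergenic peaks that were higher in set 1 increased with the distance from genes. It was 3.89% at 1 to 10 kb (242 of 6229 peaks), 4.77% at 10 to 50 kb and 7.06% at 50 to 100 kb. Among far intergenic peaks it was 8.72% at 100 to 200 kb (7.81 to 9.71%, 305 of 3497), 12.9% at 200 to 500 kb (11.6 to 14.4%, 304 of 2351) and 18.2% at 500 to 1000 kb (14.8 to 22.0%, 86 of 472). Beyond 1000 kb it was 31.5% (22.0 to 42.2%, 28 of 89). The shares higher in set 2 were 8.24%, 8.0%, 5.51% and 3.37% in the same 4 bins, and the median log2 ratios were 0.09, 0.15, 0.30 and 0.63. With a pseudocount of 5 CPM the shares higher in set 1 were 0.450%, 0.658% and 1.31% in the 3 nearer bins and 1.06%, 1.62%, 2.33% and 7.87% (7 of 89) in the 4 far bins.

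**Figure D2:**
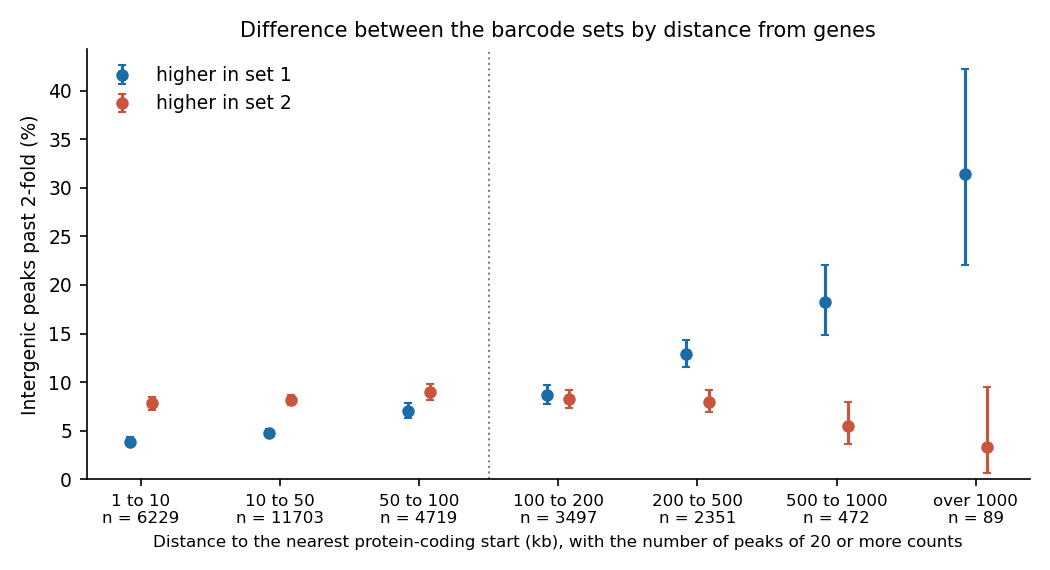
Percent of intergenic peaks with 20 or more counts that were 2-fold higher in set 1 (blue) or in set 2 (red), by distance from the nearest protein-coding start in kb. Bars are 95% Clopper-Pearson intervals and the dotted line marks 100 kb. The share for set 1 goes from 3.89% at 1 to 10 kb to 31.5% beyond 1000 kb, and that for set 2 from 7.82% to 3.37%.

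Peaks farther from genes also had lower counts and lower GC content, and the shares were read within ranges of each. Among peaks with 50 or more and under 200 counts, the shares higher in set 1 were 11.1%, 14.3%, 18% and 21.7% in the 4 far bins, against 4.30%, 5.03% and 7.5% in the 3 nearer ones. The median GC content was 46.1% in members and 48.4% in nearer intergenic peaks. When all peaks were split into 5 equal groups by GC content, the share past 2-fold in set 1 was higher in members than in nearer intergenic peaks in each group, with 16.1% against 7.40% in the lowest GC group and 10.2% against 3.67% in the highest. Within the lowest GC group, the shares higher in set 1 were 12.8%, 16.8%, 20.3% and 37.9% (25 of 66) in the 4 far bins, and in the second they were 8.69%, 11.4%, 14.5% and 10.5% (2 of 19). In the 3 other GC groups 1 or 2 peaks each lay beyond 1000 kb. By class, the members' share higher in set 2 was below that of nearer intergenic peaks in GC groups 1, 2 and 5 (5.70 against 5.91%, 8.22 against 8.77% and 5.84 against 6.48%) and above it in the other two (9.81 against 9.34% and 11.2 against 9.29%).

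The 143 members beyond 1000 kb were nearest to 74 genes, and 15 of them had no count. The 28 that were higher in set 1 were spread over 22 genes. The 8 members in this range nearest to Cited2 summed to 59.2 CPM in set 1 and 29.2 in set 2, and 4 of the 7 with enough counts were past 2-fold. The 5 nearest to Cntnap5a, a neuronal adhesion gene, summed to 41.5 CPM in set 1 and 13.8 in set 2, with 3 of 4 past 2-fold. The 7 nearest to Adam6a, which lies by the Igh locus, summed to 32.0 CPM in set 1 and 40.9 in set 2, on the opposite side. The 3 members farthest from any start were 2394.5 kb from Pcdh9, 2140.9 kb from Celf4 and 2140.1 kb from Cdh20 and had 11, 1 and 40 counts.

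Among members with 100 or more counts (2784 members), 276 were 2-fold higher in set 1 and 180 in set 2. At 100 to 200, 200 to 500 and 500 or more counts, 11.7%, 8.5% and 5.92% of members were higher in set 1. In nearer intergenic peaks these shares were 4.87%, 5.26% and 2.63%. The shares higher in set 2 were 8.78%, 4.9% and 0.329% of members and 6.97%, 4.87% and 1.35% of nearer intergenic peaks. Over all peaks with 50 or more counts, 5.09% were higher in set 1 and 5.95% in set 2. The highest log2 ratio, 3.02, was at chr14:105767009-105767631, 129.2 kb from Spry2, an inhibitor of receptor tyrosine kinase signalling. This member had 222 counts in set 1 and 12 in set 2 and was open in 12.2% of set 1 cells (10.1 to 14.7%) and 0.786% of set 2 cells (0.256 to 1.83%). The member 1243.1 kb from Nr2f1, an orphan nuclear receptor gene, had 259 and 16 counts, and the one 422.2 kb from Mctp2 had 111 and 3. The other 5 of the 8 with the highest ratios were nearest to Gcfc2, Gm9008, Fgf12, Slc4a3 and Peli2, had log2 ratios of 2.61 to 2.81, and were open in 6.23 to 13.3% of set 1 cells. Those 8 members had GC contents of 37.7 to 47.8%.

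The lowest ratio, -3.11, was at chr2:128294546-128295479, 168.5 kb from Bcl2l11, which encodes the death-promoting protein BIM, and inside the lncRNA Gm14005. It had 33 counts in set 1 and 290 in set 2 and was open in 2.08% of set 1 cells (1.22 to 3.31%) and 16.2% of set 2 cells (13.4 to 19.3%). The member chr8:115397957-115398482, 308.6 kb from Maf, a regulator of macrophages and T cells, had 18 and 143 counts, and the member 182.9 kb from Gata6 had 13 and 105. The member 184.5 kb from Msrb3 had 56 and 262 counts. The 4 others, nearest to Actr3, Zeb2, Ptger4 and Pik3r1, had log2 ratios of -2.36 to -2.22. Each of these 8 was open in 6.45 to 16.2% of set 2 cells and in 0.733 to 3.30% of set 1 cells.

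**Figure D3:**
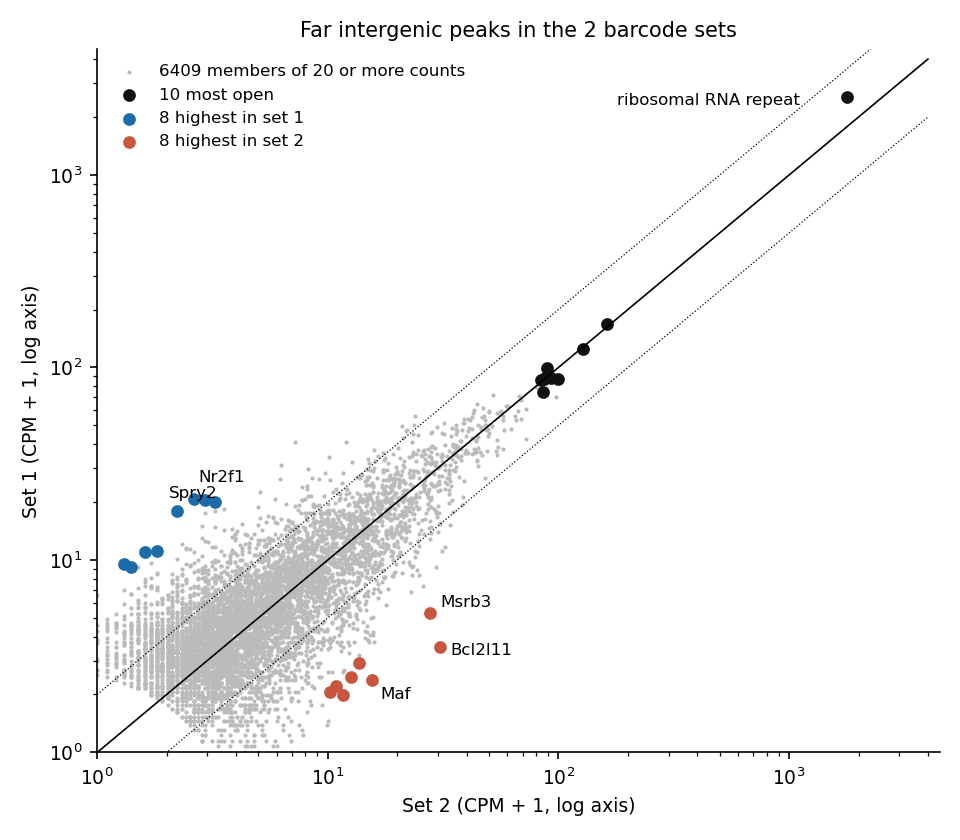
CPM plus 1 of far intergenic peaks in set 2 (horizontal) and set 1 (vertical), both on log axes. Grey points are the 6409 peaks with 20 or more counts, coloured points those named in the text, the solid line marks equality and the dotted lines a 2-fold difference. The 10 most open peaks lie between the dotted lines, and the Spry2 and Bcl2l11 points lie far outside them.

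For the fixed threshold, the 3 members just above 100 kb lay 100.03 kb from Pdc, 100.04 kb from Unc5b and 100.08 kb from Gm9733, with 99, 294 and 181 counts. The 3 intergenic peaks just below it lay 99.99 kb from Tmem30b and from Zfp706 and 99.91 kb from Slc30a5, with 31, 171 and 32 counts.

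The central 300 bases of each peak, or the whole peak where it was narrower, were searched on both strands for 7 short words. Of members 24.0% were 300 bp wide or less, against 19.8% of nearer intergenic peaks and 4.62% of promoter peaks. The searched length therefore differed between these classes. PU.1 was searched as GAGGAAGT, the wider ETS family as CCGGAAGT, and the others as CATTCC after A or G and before A or T for TEAD, TGACTCA or TGAGTCA for AP-1, TGTGGTT before A or T for RUNX, AGATAAG before A or G for GATA, and a CTCF consensus of 12 letters. The PU.1 and ETS words end in the same letters, and no other words overlap by design. In members the PU.1 word was present in 7.48% (6.90 to 8.09%, against 6.09% of all 93513 peaks), RUNX in 9.27% (6.30% of all), AP-1 in 9.51% (7.71%), TEAD in 4.51% (3.91%) and GATA in 3.47% (2.54%). In nearer intergenic peaks these 5 shares were 6.84%, 6.80%, 9.01%, 4.22% and 2.90%, and at promoters 2.84%, 2.08%, 3.47%, 2.45% and 1.19%. When whole peaks were searched, the members' shares for PU.1, AP-1, TEAD and GATA were below those of all peaks. CTCF was present in 3.95% (3.52 to 4.40%) of members, 6.66% of nearer intergenic peaks and 4.46% of all peaks. The ETS word, common at promoters (3.58%), was present in 0.542% of members and 1.11% of all peaks, and 66.7% of members held none of the 7 words. The same words read backwards without complementing were present in 1.90% of members for PU.1, 1.86% for RUNX, 1.95% for GATA, 1.97% for TEAD and 5.07% for AP-1, and in 1.01% for ETS, above the forward word.

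Members with different words differed in their ratio between the sets. The 557 members with the PU.1 word and 20 or more counts had a median log2 ratio of -0.20, and 7.36% of them were 2-fold higher in set 1 and 14.9% in set 2. The 249 with the GATA word had a median of 0.32, with 26.9% higher in set 1 and 8.84% in set 2. Those with the AP-1 word (702 members) had a median of 0.27, with 16.7% and 6.70%. In the 303 with the CTCF word the median was 0.24 and few were past 2-fold in either direction (4.95% and 0.990%). The TEAD word (329 members) had a median of 0.13, equal to that of all members, with 11.2% and 3.95%. The RUNX word had a median of -0.01 with 12.3% and 11.4%, and members without any of the words had 0.13 with 10.5% and 7.31%. Members with the reversed words had medians of 0.09 to 0.23, with 7.09 to 16.9% higher in set 1 and 4.51 to 8.45% in set 2. For the reversed AP-1 word these shares were 13.2% and 7.95%, and for the reversed GATA word 14.3% and 4.51%. Over all members they were 11.3% and 7.88%, and over all peaks 5.2% and 6.85%. In nearer intergenic peaks the medians were -0.33 for PU.1, 0.11 for GATA and 0.10 for AP-1.

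Genes for blood regulators were next taken from a list of 64 genes. Of these, 30 were the nearest gene of a member (46.9%, against 8.49% of 21842 protein-coding genes), with 333 members in all and 24.4 members per Mb of the territory nearest to them, against 9.07 per Mb over all genes. Of the 277 with enough counts, 21 (7.58%) were 2-fold higher in set 1 and 40 (14.4%) in set 2, with a median log2 ratio of -0.10 against 0.13 over all members. The shares higher in set 1 and in set 2 were 11.3% and 7.88% over all members, and 5.2% and 6.85% over all peaks. A list of 64 regulators of other tissues had 28 genes (43.8%) with 127 members and 8.98 members per Mb, so that the share of genes was near that of blood regulators. Of its 98 members with enough counts 17 (17.3%) were higher in set 1 and 4 (4.08%) in set 2, with a median of 0.40. With each peak counted once per cell the medians were -0.13 and 0.49.

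Among the 26 blood regulators with 3 or more members, the summed counts had an interval above equality, that is on the side of set 1, at 6 genes and below it at 14, and it included 0 at the other 6. These intervals are too narrow, as described above, and those that end close to 0 may include it. The same count is not given for all 974 protein-coding genes with 3 or more members, so these numbers describe the listed genes only. RUNX1 is needed to form hematopoietic stem cells. The 14 members upstream of Runx1, 100.7 to 371.0 kb away, summed to 134.8 CPM in set 1 (128.6 to 141.2) and 82.5 in set 2 (76.9 to 88.4), and 5 of 11 were 2-fold higher in set 1. The most distant, chr16:93197152-93198180, had 33.1 and 9.16 CPM, whereas chr16:93028338-93029213 had 21.8 and 20.3. The summed log2 ratio at Runx1 was 0.71 (0.59 to 0.83), and that of its promoter peaks was -0.17. Mecom, a stem cell regulator, had 15.2 and 7.54 CPM in 4 members, and Foxp1 had 32.6 and 14.7 CPM in 5 members, of which chr6:98878157-98879202 alone had 22.8 and 6.72. Mycn (93.5 and 70.3 CPM), Ets1 (80.6 and 71.5) and, at the edge of its interval, Kit (127.2 and 117.9) were the remaining 3 on this side.

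The chemokine receptor gene Cxcr4, which keeps stem cells in the marrow, was on the side of set 2. Its 13 members summed to 47.5 CPM in set 1 (43.8 to 51.4) and 89.1 in set 2 (83.3 to 95.2), and 5 of 11 were 2-fold higher in set 2. The member chr1:128704925-128705649 had 2.76 and 12 CPM, and the most open one, chr1:128832168-128833478, had 15.7 and 20.3. Maf had 78.7 and 128.7 CPM in 16 members, with 4 of 15 past 2-fold in set 2, and Sox4, a transcription factor gene of lymphoid progenitors, had 119.8 and 160.3 CPM in 23 members. The summed log2 ratio was -0.75 at Ikzf2, -0.46 at Satb1, -0.42 at Foxo1, -0.27 at Tcf4, -0.21 at Id2, -0.18 at Prdm1 and -0.15 at Zeb2. Among genes with 3 members each, the ratio was -0.65 (Nr4a3), -1.08 (Nr4a2), -1.38 (Bach2) and -1.41 (Runx2, on 33 counts). At Myc, Meis1, Gata3, Ptger4, Cdk6 and Bcl11a the interval included 0.

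**Figure D4:**
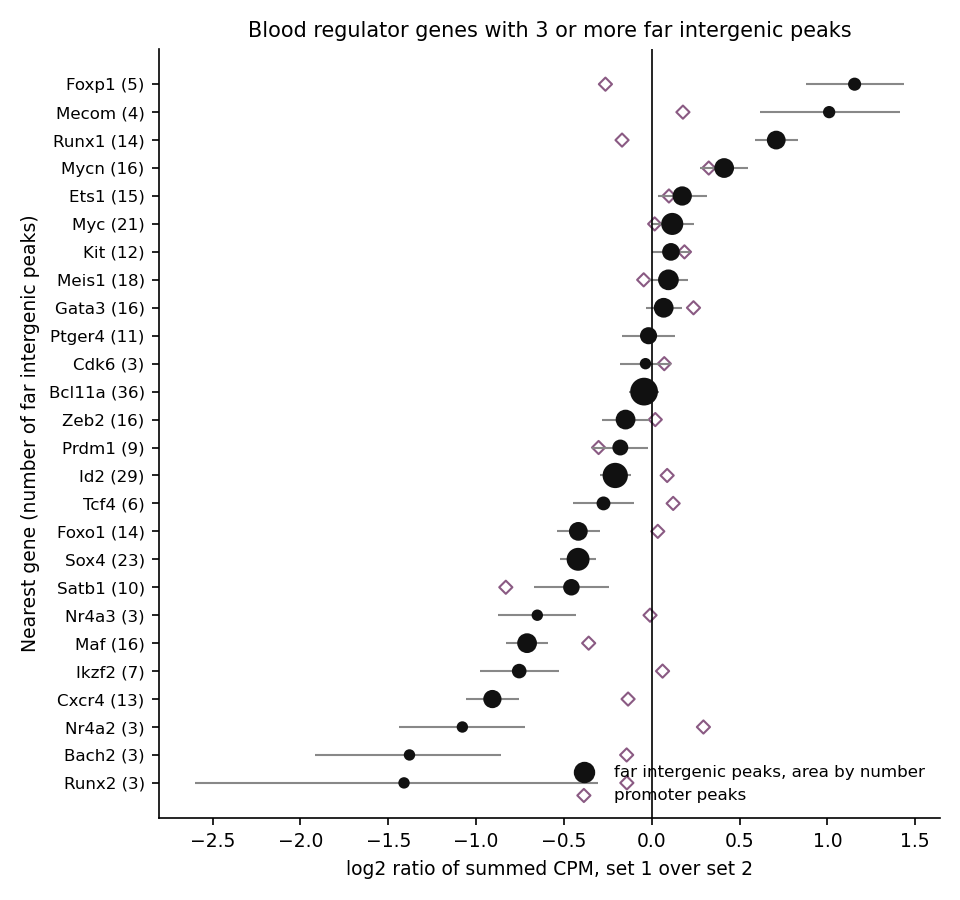
Log2 ratio of summed CPM in set 1 over set 2 for far intergenic peaks nearest to each of 26 blood regulators, with 95% counting intervals and a point area that grows with the number of peaks, and for their promoter peaks (diamonds). Foxp1, Mecom and Runx1 lie to the right of 0, with promoter ratios of 0.18 at Mecom and -0.17 at Runx1, and Cxcr4, Maf and Bach2 lie to the left.

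Among the other tissue regulators, Sox9 had the most members. The genes given here, the single members given for Runx1, Foxp1, Cxcr4 and Sox9, and the genes given beyond 1000 kb were chosen after their values were seen. Its 23 members summed to 204.4 CPM in set 1 (196.7 to 212.3) and 137.6 in set 2 (130.3 to 145.1), and 5 of 19 were 2-fold higher in set 1 and 0 in set 2. The member chr11:112129808-112130584 had 25.6 and 7.54 CPM. Foxa2 had 14 members with a summed log2 ratio of 0.53, Pou3f3 5 members with 1.49 and Nr2f1 4 members with 1.22, while Gata6 (5 members) had -0.35 and Irx3 (9 members) -0.04.

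Members next to each other had weakly related ratios. Spearman's rho of the log2 ratio was 0.17 over 1769 pairs at most 10 kb apart, 0.18 over 1949 pairs at 10 to 50 kb, 0.14 over 1119 pairs at 50 to 200 kb and 0.08 over 1552 pairs at larger gaps. In nearer intergenic peaks it was 0.11, 0.08, 0.06 and 0.02 over the same ranges. The ratio of a member and the summed ratio of the promoter peaks of its nearest gene had a rho of 0.07 over 5349 members. These points share libraries, depth and base composition, members of 1 gene share its promoter, and genes and peaks are not independent.

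Across single cells, with the ribosomal RNA repeat left out, the members held a median of 4.46% of a cell's counts in set 1 (quartiles 4.09 and 4.84%) and 4.34% in set 2 (3.97 and 4.71%). After each cell was thinned to 4899 counts, the medians were 4.43% in 749 cells of set 1 and 4.30% in 560 cells of set 2, and a cell had counts in 167 and 160 members. Before thinning these numbers were 283 and 262.5. The sets overlapped widely in this share. Before thinning, its standard deviation between cells was 0.656 percentage points in set 1 and 0.886 in set 2. Binomial counting alone would give 0.217 and 0.286.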

How the data were processed

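Single-cell ATAC-seq of sorted LT-HSCs was analysed from the table that pools 2 of the 4 samples. Per the submitters' processing notes the authors used Cell Ranger ATAC 1.2.0 with mm10 (GRCm38), and the deposited values are raw counts of cut sites per peak and cell, without normalization. The second table was not used because its rows carry no peak names.

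Peaks were placed against GENCODE M21 on GRCm38, and a promoter peak had a protein-coding start within 1000 bp. Counts were summed over the cells of each barcode set and scaled to CPM. Ratios used a pseudocount of 1 CPM and peaks with 20 or more counts, and 2-fold was the threshold. Named members were the 10 most open, the 8 highest and 8 lowest ratios among those with 100 or more counts, the 3 farthest, and 3 on each side of 100 kb. Named groups were the 6 clusters and 10 nearest genes with the most members, and blood regulators with 3 or more. The members, lists and words were chosen with earlier results of these data known. No doublet caller was run and all cells were kept. Python 3.11.15, numpy 2.4.6, scipy 1.17.1, pandas 2.3.3 and pysam 0.24.0 were used, and the ratio code was tested on simulated data. Alternatives changed the distance, the annotation, the gap, the count minimum, the pseudocount, the scaling and the cells used. A sequence and the results for its region, which is 1 of the 10 most open members, are not reported here.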

Additional observations from a re-analysis of the deposited data

How the results depend on the processing

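Of 54 alternatives for 19 results, 36 moved a value beyond its limits and 18 did not. The limits were a fixed fold range for the numbers of peaks and of blood regulator genes, and a counting interval for shares. For medians and correlations they were an interval over peaks or pairs of peaks. The median log2 ratio and the correlations kept their sign. The other results are counts or shares, which have no sign that could turn. Contrasts with all peaks did not all hold. The share higher in set 2 was 7.88% of members against 6.85% of all peaks. With a pseudocount of 5 CPM it was 0.999% against 1.01%. The number of far intergenic peaks was 13264 with a distance of 50000 bp, 3635 with 200000 bp, 964 when starts and bodies of all genes were used, and 1844 among peaks open in at least 5% of cells. Their median width was 465, 428 and 911 bp with 50000 bp, with 200000 bp and among peaks open in at least 5% of cells. Their share of counts was 4.91% with each peak counted once per cell, 4.49% without the 57 deepest cells, 4.53% in thinned cells, 4.25% without repeat-like peaks and 0.419% with all genes. The median share of open cells was 1.15% in thinned cells, 2.34% with 200000 bp and 2.20% with all genes. Clusters held 33.1%, 61.6% and 79.1% of members with gaps of 5000, 20000 and 50000 bp. The median log2 ratio was 0.069 without a count minimum, 0.068 with a pseudocount of 5 CPM, 0.11 with median-of-ratios scaling and 0.089 in thinned cells. The percent 2-fold higher in set 1 was 9.40, 1.45 and 12.6 without a minimum, with a pseudocount of 5 CPM and in thinned cells, and in set 2 it was 6.72, 0.999 and 9.94. In whole peaks, AP-1 was present in 15.2% of members (15.9% of all peaks), RUNX in 13.2% (12.2%) and PU.1 in 10.4% (11.1%). TEAD was present in 9.24% (10.9%), GATA in 6.10% (6.22%), CTCF in 4.89% (6.03%) and ETS in 0.967% (2.71%). For AP-1, PU.1, TEAD and GATA the members were below all peaks here, whereas they were above all peaks in the central bases. Beyond 500000 bp, 20.3% were 2-fold higher in set 1, and alternatives chosen after seeing the data gave 21.4% once per cell, 19.6% in thinned cells 18.6% at 50 or more and under 200 counts and 3.21% with a pseudocount of 5 CPM. The cause of these changes was not tested. No paired analysis was possible because each group is a single sample and no label ties a barcode set to a sample. Counts of 0 to 20 limit what single narrow peaks show, and the share of open cells depends on depth.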

Other observations

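Other antigen receptor loci, chosen after their values were seen, also held far intergenic peaks. The 30 in the Tra/Trd locus summed to 110.3 CPM in set 1 and 105.4 in set 2, with a log2 ratio of 0.07 (-0.05 to 0.18). The Trg locus held 6, with 46.9 and 54.1 CPM and a log2 ratio of -0.21 (-0.38 to -0.04), and the most open of them had counts in 17.3% of cells. The Igk and Trb loci held 5 each, and the Igl locus held 0.

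Far intergenic peaks within 1000 bp of a lncRNA start were 2-fold higher in set 1 in 5.93% of 337 with 20 or more counts and in set 2 in 6.82%. For the 6072 others these shares were 11.6% and 7.94%, and over all peaks they were 5.2% and 6.85%.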
